A study of Mus musculus with 8 samples.

Results

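The 10 genes of leukotriene and prostaglandin synthesis were followed in neutrophils from the inflamed mouse spinal cord, taken at 2 zeitgeber times (hours after lights-on). The genes were named by their place in the pathway, with no threshold on a measured value: Pla2g4a, Alox5, Alox5ap, Lta4h, Ltc4s, Alox15, Ptgs1, Ptgs2, Ptges and Hpgd. All 10 were among the 23369 genes of the deposited count table, and 9 of them, all but Ltc4s, were among the 12610 genes that passed the filter on low counts. Libraries came from 4 samples at ZT13, the start of the dark phase, and 4 samples at ZT1, the start of the light phase. Mice of both groups had the genotype label C57BL/6N and carried EAE (experimental autoimmune encephalomyelitis), in which immunisation provokes an immune attack on myelin and which is used to model multiple sclerosis. All 8 libraries belong to 1 batch by their labels. Cells were sorted as CD45+CD11b+Ly6G+, and each library started from amplified cDNA. Healthy mice and neutrophils from blood were not analysed here.

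Eicosanoids are lipid mediators made from arachidonic acid, which cytosolic phospholipase A2 (Pla2g4a) releases from membranes. In the lipoxygenase branch, the enzyme encoded by Alox5 works with its activating protein FLAP (Alox5ap) to make leukotriene A4, which Lta4h turns into the neutrophil attractant leukotriene B4 and Ltc4s into the cysteinyl leukotrienes. In the cyclooxygenase branch, the constitutive enzyme COX-1 (Ptgs1) and the inducible COX-2 (Ptgs2) make prostaglandin H2, from which Ptges makes prostaglandin E2. Neutrophils are a main source of leukotriene B4.

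The label of the sorted cells was checked against marker genes. The 8 neutrophil markers, led by S100a9, were all in the table, with a summed level of 85635 to 122250 CPM (counts relative to library size, scaled by TMM factors) at ZT13 and 57285 to 90816 CPM at ZT1. Most of this sum came from S100a8 and S100a9 (means of 39063 and 41764 CPM at ZT13, 25184 and 27577 CPM at ZT1). Csf3r had a lower mean at ZT13 (1558 ± 130 CPM, against 1903 ± 230 CPM at ZT1; edgeR adjusted p = 0.494), while the other listed neutrophil markers had higher means at ZT13. Mast cell and basophil markers were at or near 0, with summed levels of 0 to 0.683 CPM at ZT13 and 0 to 1.35 CPM at ZT1 over the 3 of 7 markers found in the table (led by Ms4a2), and 2 of these were at 0 in all ZT13 libraries. Platelet markers summed to 22.1 to 54.2 CPM at ZT13 and 21.4 to 34.7 CPM at ZT1, almost all of it from Itgb3. The summed markers of monocytes and macrophages (led by Ly6c2), eosinophils (Siglecf), T and NK cells (Nkg7), B cells (Ighm), endothelium (Pecam1) and glia and neurons (Mbp) also overlapped between the time points. Within the monocyte and macrophage list, 2 of 8 genes were called by DESeq2 (0.936% over all tested genes), in opposite directions. Ly6c2, which made up most of the sum, was higher at ZT13 in every library (1165 ± 90.5 CPM at ZT13 and 834.5 ± 159.7 CPM at ZT1; log2 fold change 0.48 ± 0.13 SE; DESeq2 adjusted p = 0.0395; edgeR adjusted p = 0.403). Mrc1, a marker of resident macrophages, had 0, 0, 0 and 6 counts at ZT13, against 36, 105, 61 and 60 counts at ZT1 (DESeq2 adjusted p = 0.0378; edgeR adjusted p = 0.433). The part of such cells in the results that follow was not tested. Library totals ranged from 46152067 to 67873023 counts. Every ZT13 library held fewer detected genes (13945 to 15751) than every ZT1 library (15760 to 17701), and the part of this in the differences below was not tested. Total RNA of sorted cells cannot tell fewer cells of a type from less RNA per cell.

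The leukotriene B4 route held the 3 most abundant of the 10 genes. Levels between genes were compared in TPM, which also divides counts by merged exon length. Alox5ap led with a mean of 869.7 ± 123 TPM (SD over the 8 libraries), the 100th highest of all annotated genes. Alox5 followed with 408 ± 72.5 TPM and Lta4h with 322 ± 75.8 TPM, and each stood above its next neighbour in 8 of 8 libraries. The order of Alox5 and Lta4h rests on the length used. Merged exons span 6102 bases for Lta4h and 4106 for Alox5, against 3225 and 3576 in the longest transcript. In mean CPM, which ignores length, Lta4h was above Alox5 at ZT13 (826 and 721 CPM) and at ZT1 (902 and 768 CPM). The range of Alox5 over libraries overlapped that of Lta4h, while Lta4h did not overlap with Ptgs2, the next gene down. Below them stood Ptgs2 at 110.3 ± 52.9 TPM, Ptgs1 at 32.97 ± 11.97 TPM and Pla2g4a at 13.7 ± 3.60 TPM. Ptgs2 exceeded Ptgs1 in 8 of 8 libraries, although their ranges over libraries overlapped. At the bottom, Hpgd (6.92 ± 4.11 TPM) and Ptges (4.97 ± 1.25 TPM) changed places between libraries, with Hpgd higher in 5 of 8. Alox15 stood at 2.05 ± 1.88 TPM and Ltc4s at 0.387 ± 0.206 TPM. Ltc4s was the lowest of the 10 in 8 of 8 libraries.

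Between the time points, no member passed the main test, the quasi-likelihood test of edgeR adjusted over all 12610 genes. It called 0 genes in all (percent called 0), and 1160 genes (9.2%) had an unadjusted p under 0.05. Among the 9 members tested, 3 were under that unadjusted value: Alox5ap and Alox15 with higher values at ZT13 (4.35% of all tested genes), and Ptgs1 with lower values (4.85%). DESeq2 on the same genes called 118 genes (0.936%; 0.341% higher and 0.595% lower at ZT13), of which 2 were members, Alox5ap and Alox15. On all genes of the table it called 256 (1.13%), again with 2 members. The same 2 members were the ones whose ZT13 libraries all lay on one side of the ZT1 libraries, which held for 713 of the tested genes (5.65%; 2.66% higher and 2.99% lower at ZT13). The median log2 fold change of ZT13 over ZT1 was -0.09 over the 9 members and -0.02 over all tested genes.

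**Figure D1:**
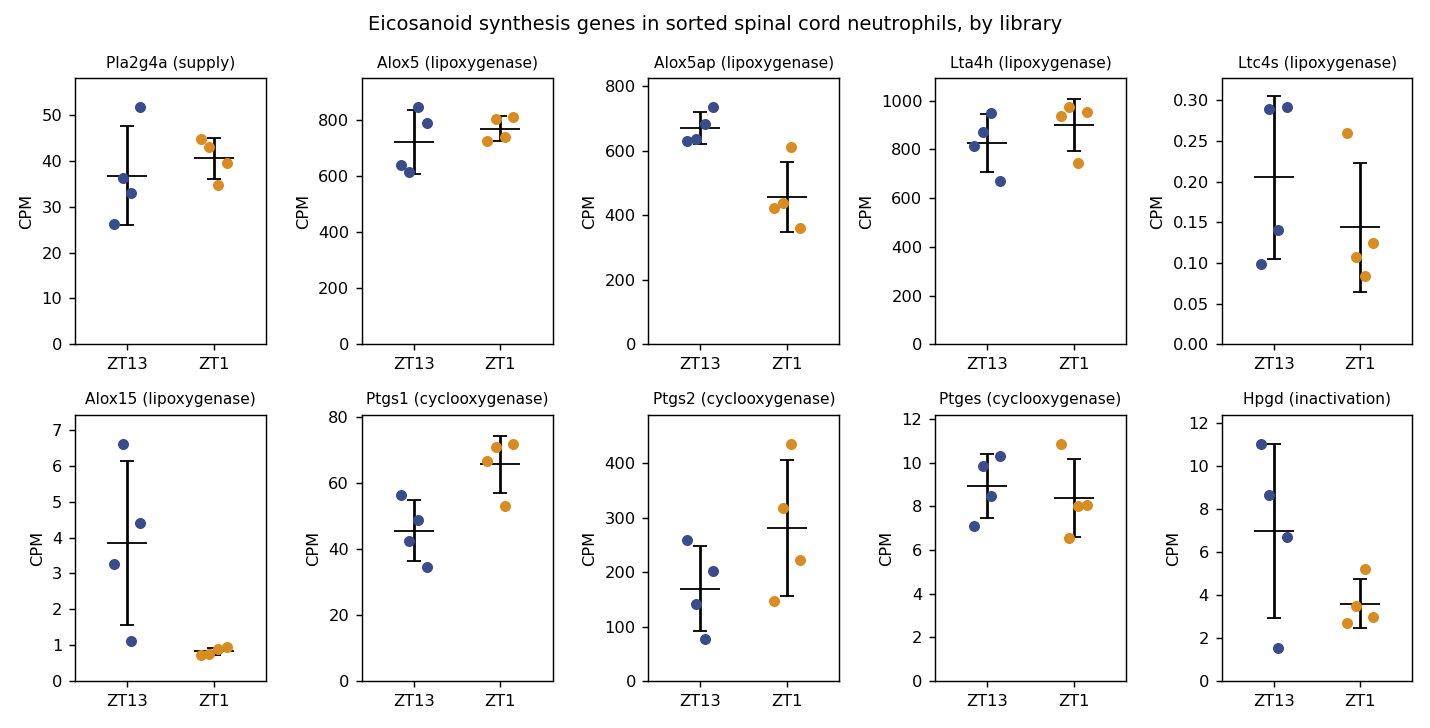
Level of each of the 10 genes in CPM (vertical axis, starting at 0) in the 4 ZT13 libraries (left in each panel) and the 4 ZT1 libraries (right). Points are libraries, horizontal marks are means and bars are SDs. Only for Alox5ap and Alox15 do the ZT13 points lie apart from the ZT1 points.

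The arachidonate-releasing phospholipase gene Pla2g4a (ENSMUSG00000056220.15) lies on GRCm38 chromosome 1 from 149829618 to 149961290. Its values were 26.2, 36.3, 32.9 and 51.8 CPM at ZT13, against 44.8, 43.1, 34.7 and 39.4 CPM at ZT1. Both the highest and the lowest library belonged to ZT13. This gave a log2 fold change of -0.14 ± 0.20 (SE; 95% interval from -0.59 to 0.31; edgeR adjusted p = 0.896).

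Alox5 (ENSMUSG00000025701.13, chromosome 6 from 116410077 to 116461178), the gene of the first leukotriene enzyme, had overlapping levels at both times. It stood at 638, 612, 845 and 789 CPM at ZT13 and at 724, 801, 737 and 809.6 CPM at ZT1. The ZT13 libraries fell into a lower pair (replicates 1 and 2) and a higher pair (replicates 3 and 4), with the ZT1 libraries between the lowest and the highest of them. Its log2 fold change was -0.09 ± 0.11 (SE), with a 95% interval from -0.35 to 0.16 (edgeR adjusted p = 0.874).

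Its partner Alox5ap (ENSMUSG00000060063.10, chromosome 5 from 149264767 to 149288153) encodes FLAP, the membrane protein that presents arachidonic acid to the enzyme. Alox5ap had 630.2, 635, 684 and 736 CPM at ZT13, against 421, 436, 611 and 359.9 CPM at ZT1. All 4 ZT13 libraries were above all 4 ZT1 libraries, but ZT1 replicate 3 came close. The log2 fold change was 0.55 ± 0.15 (SE; 95% interval from 0.22 to 0.89). This passed in DESeq2 (adjusted p = 0.0324) and not in edgeR (adjusted p = 0.403). ZT1 replicate 3 also had the highest summed neutrophil markers of its group (90816 CPM, against 57285 to 77295 CPM in the other ZT1 libraries), a value above those of ZT13 replicates 1 and 2 (85635 and 86527 CPM). That sum is mostly S100a8 and S100a9. The part of these marker levels in the Alox5ap difference was not tested. The antisense gene Gm19719 overlaps Alox5ap, and with a kit that does not mark strand their reads cannot be told apart. Gm19719 itself had at most 47 counts at ZT13 and 76 at ZT1.

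Lta4h (ENSMUSG00000015889.9, chromosome 10 from 93453411 to 93484875), the hydrolase that completes leukotriene B4, stood at 816, 872, 948 and 669.7 CPM at ZT13. At ZT1 it stood at 937, 975, 744 and 954 CPM. The groups overlapped, with ZT1 replicate 3 well below the other 3 ZT1 libraries. Its fitted log2 fold change was -0.13 ± 0.13 (SE; 95% interval from -0.41 to 0.15; edgeR adjusted p = 0.826).

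Ltc4s (ENSMUSG00000020377.16, chromosome 11 from 50236461 to 50238616), which joins leukotriene A4 to glutathione, was close to the limit of counting. Its counts were 5, 17, 7 and 13 in the ZT13 libraries and 16, 5, 5 and 9 in the ZT1 libraries. It did not pass the filter on low counts and was not in the main test. In DESeq2 on all genes of the table its adjusted p was 0.924, and counts this low limit what could be seen. The antisense gene Gm26542, with at most 18 counts at ZT13 and 4 at ZT1, overlaps it.

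Alox15 (ENSMUSG00000018924.7, chromosome 11 from 70344152 to 70352031) encodes the mouse 12/15-lipoxygenase, an enzyme known from eosinophils and resident macrophages and involved in making pro-resolving mediators. It was rare at both times and higher at ZT13 in every library. The ZT13 libraries had 166, 389, 56 and 196 counts (3.27, 6.62, 1.125 and 4.40 CPM), against 45, 35, 53 and 68 counts (0.730, 0.751, 0.889 and 0.938 CPM) in the ZT1 libraries. The 4 ZT1 values lay close together, while the ZT13 values spread widely and replicate 3 was hardly above ZT1. The log2 fold change was 2.22 ± 0.56 (SE; 95% interval from 0.96 to 3.47). DESeq2 called it (adjusted p = 0.0193) and edgeR did not (adjusted p = 0.385).

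Markers of cells known for Alox15 were compared with it. ZT13 replicate 2, with the most Alox15, also had the highest summed level at ZT13 of the 8 monocyte and macrophage markers (2061 CPM) and of the 6 listed eosinophil markers (39.8 CPM). Most of that monocyte and macrophage sum was Ly6c2 (1298 CPM). Mrc1, the marker of resident macrophages, had 0 counts in ZT13 replicate 2 and was lower at ZT13 than at ZT1, opposite to Alox15. ZT13 replicate 3, with the least Alox15 of that group, had the lowest monocyte and macrophage sum of the 4 (1632 CPM), but its eosinophil sum (33.5 CPM) was above that of ZT13 replicate 4 (23.9 CPM), which had more Alox15. ZT1 replicate 3 had a monocyte and macrophage sum of 1950 CPM, above those of ZT13 replicates 1, 3 and 4, with 0.889 CPM of Alox15. P2ry12, a single microglia marker, stood at 22.1, 30.1, 10.1 and 14.4 CPM at ZT13, against 13.8, 17.9, 21.2 and 18.1 CPM at ZT1. Other microglia markers are not reported here, so P2ry12 does not stand for microglial RNA as a whole. Between the time points these sums overlapped: 1632 to 2061 CPM at ZT13 against 1398 to 1950 CPM at ZT1 for monocytes and macrophages, and 23.9 to 39.8 CPM at ZT13 against 23.0 to 32.85 CPM at ZT1 for eosinophils. None of the markers of these lists found in the table was at 0 in all libraries of a group. Their part in the Alox15 values was not tested.

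The sequence around the start site is shown for Ptgs1 and Ptgs2, the constitutive and the inducible isoenzyme, so that they can be compared, together with Pla2g4a, the neighbour of Ptgs2, and Alox5, the head of the other branch. Each window runs from 250 bases before to 30 bases after the start site, 5′ to 3′ on the strand of the gene, from RefSeq on GRCm38.p6; 8 of the 10 members had such a window, and Alox5ap and Alox15 did not. Capitals mark matches on either strand to the TATA box TATAAA, the CRE half-site TGACG, the E-box CACGTG, the C/EBP site TTNNGNAA, the GC box GGGCGG or the NF-kB site, and positions count from the start site.
Ptgs2 (chr1:150099781-150100060, + strand): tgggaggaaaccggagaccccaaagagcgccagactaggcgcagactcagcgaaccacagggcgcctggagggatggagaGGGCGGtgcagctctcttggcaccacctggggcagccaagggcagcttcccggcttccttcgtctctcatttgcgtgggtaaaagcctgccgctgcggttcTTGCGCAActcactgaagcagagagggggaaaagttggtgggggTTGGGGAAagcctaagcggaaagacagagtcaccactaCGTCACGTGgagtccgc
Ptgs1 (chr2:36230176-36230455, + strand): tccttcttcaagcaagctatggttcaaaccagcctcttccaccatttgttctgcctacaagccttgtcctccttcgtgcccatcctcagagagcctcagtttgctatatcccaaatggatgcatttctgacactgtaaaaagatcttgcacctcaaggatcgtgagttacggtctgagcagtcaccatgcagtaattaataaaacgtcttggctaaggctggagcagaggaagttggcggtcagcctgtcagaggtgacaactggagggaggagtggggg
Pla2g4a (chr1:149961261-149961540, - strand): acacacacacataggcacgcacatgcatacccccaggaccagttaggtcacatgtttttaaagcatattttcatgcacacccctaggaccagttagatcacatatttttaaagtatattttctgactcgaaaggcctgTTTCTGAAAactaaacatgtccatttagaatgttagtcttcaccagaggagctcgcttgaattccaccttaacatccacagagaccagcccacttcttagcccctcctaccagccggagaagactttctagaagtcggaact
Alox5 (chr6:116461149-116461428, - strand): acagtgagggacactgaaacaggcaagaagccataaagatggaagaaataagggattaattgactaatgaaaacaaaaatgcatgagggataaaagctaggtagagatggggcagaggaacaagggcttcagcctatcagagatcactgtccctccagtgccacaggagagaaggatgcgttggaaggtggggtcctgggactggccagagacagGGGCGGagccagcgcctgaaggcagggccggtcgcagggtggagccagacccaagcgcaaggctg
In the Ptgs2 window, the run CGTCACGTG holds a reverse CRE half-site and an E-box that share 2 of their letters. By the RefSeq annotation this run lies just after the start site. Where transcription started in these cells was not measured, so the side of the start on which the run lies is not settled. The window also held C/EBP matches at -69 to -62 (a palindrome, found on both strands) and -25 to -18 and a GC box at -170 to -165. The Ptgs1 window held none of the 6 motifs, the Pla2g4a window shown a pair of overlapping C/EBP matches and the Alox5 window a GC box. Pla2g4a has a second RefSeq window, at an inner start site, which is not shown and which held a TATA box match and no C/EBP match. Among 32851 windows of the same length, 6.79% held the E-box, 19.9% the CRE half-site, 39.3% the C/EBP site, 34.7% the GC box, 13.1% the TATA box and 10.5% the NF-kB site. A match is a description of letters and not a bound site.

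Ptgs1 (ENSMUSG00000047250.14, chromosome 2 from 36230426 to 36252272), the gene of COX-1, had lower values at ZT13. It stood at 56.4, 42.4, 48.8 and 34.6 CPM at ZT13, against 66.6, 70.9, 52.9 and 71.9 CPM at ZT1. The groups overlapped only through ZT13 replicate 1 and ZT1 replicate 3. Its log2 fold change was -0.53 ± 0.17 (SE; 95% interval from -0.90 to -0.15) and was past the threshold neither in edgeR (adjusted p = 0.473) nor in DESeq2 (adjusted p = 0.174). COX-1 is abundant in platelets, whose 6 markers summed to overlapping levels at ZT13 and ZT1 (given above). Of these, Ppbp had no count in 4 of 4 ZT13 libraries and in 3 of 4 ZT1 libraries, and Itgb3 averaged 34.2 ± 13.3 CPM at ZT13 and 27.3 ± 5.74 CPM at ZT1. The part of platelet RNA in the Ptgs1 values was not tested.

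Ptgs2 (ENSMUSG00000032487.9, chromosome 1 from 150100031 to 150108227), the gene of COX-2, varied widely between libraries. Its values were 258, 141, 77.1 and 202 CPM at ZT13, against 147, 319, 436 and 222 CPM at ZT1. The lowest library was ZT13 replicate 3 and the highest ZT1 replicate 3, but the other libraries of the groups interleaved. The log2 fold change was -0.73 ± 0.39 (SE), with a 95% interval from -1.61 to 0.15 (edgeR adjusted p = 0.618), so that no difference in either direction was resolved. Without ZT1 replicate 3 the value was -0.44, and without ZT13 replicate 3 it was -0.49. The extreme libraries of Ptgs2 were also those with the fewest (13945) and the most (17701) detected genes, and the part of this in the Ptgs2 values was not tested.

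Ptgs2 and Pla2g4a are neighbours on chromosome 1. Their genes point away from each other with 138740 bases and 3 annotated genes between them, none of them protein-coding: a pseudogene, a miRNA gene and Ptgs2os. The library with the most Pla2g4a, ZT13 replicate 4 (51.8 CPM), was in the middle for Ptgs2 (202 CPM), and the library with the most Ptgs2, ZT1 replicate 3, had the least Pla2g4a of its group (34.7 CPM).

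Ptges (ENSMUSG00000050737.14, chromosome 2 from 30889471 to 30929863), the inducible prostaglandin E synthase, was low at both times. It stood at 7.11, 9.87, 8.46 and 10.3 CPM at ZT13 and at 10.9, 6.57, 8.02 and 8.07 CPM at ZT1. The groups overlapped fully. In edgeR the log2 fold change was 0.09 ± 0.23 (SE; 95% interval from -0.43 to 0.62; edgeR adjusted p = 0.950). The library with the most Ptgs2, ZT1 replicate 3, had 8.02 CPM of Ptges.

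Hpgd (ENSMUSG00000031613.10, chromosome 8 from 56294585 to 56321043), the dehydrogenase that inactivates prostaglandin E2, stood at 11.05, 8.64, 1.55 and 6.69 CPM at ZT13. At ZT1 it stood at 2.68, 3.4997, 5.22 and 2.98 CPM. In all, 3 ZT13 libraries were above every ZT1 library and ZT13 replicate 3 was below every one. In edgeR the log2 fold change was 0.96 ± 0.52 (SE; 95% interval from -0.20 to 2.12; edgeR adjusted p = 0.620). As for Alox15, ZT13 replicate 3 was also the ZT13 library with the lowest summed monocyte and macrophage markers, whose part was not tested.

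**Figure D2:**
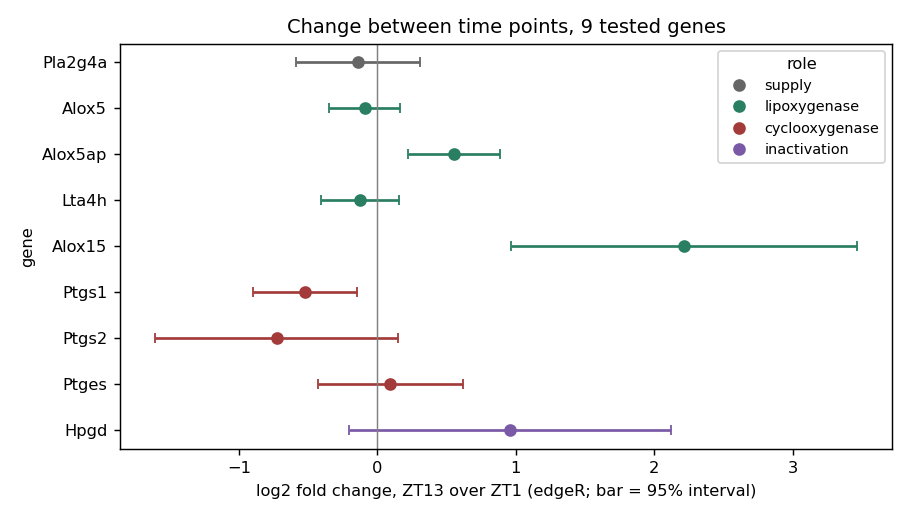
Log2 fold change of ZT13 over ZT1 (horizontal axis) for the 9 tested genes, with 95% intervals from edgeR, coloured by role. The intervals of Alox5ap (0.22 to 0.89) and Alox15 (0.96 to 3.47) lie above 0 and that of Ptgs1 (-0.90 to -0.15) below 0, before adjustment over all genes, and the other 6 include 0.

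The balance of the branches leaned further to the lipoxygenase side in 3 of 4 ZT13 libraries than in any ZT1 library. The summed TPM of Alox5, Alox5ap, Alox15, Lta4h and Ltc4s was divided by that of Ptgs1, Ptgs2 and Ptges in each library. This ratio was 10.1, 16.8, 26.7 and 14.8 at ZT13, against 12.05, 7.40, 6.60 and 8.81 at ZT1. In all, 3 ZT13 libraries were above every ZT1 library, while ZT13 replicate 1 was below ZT1 replicate 1. On the log2 scale the ratio averaged 4.01 ± 0.58 at ZT13 and 3.09 ± 0.38 at ZT1 (SD, n = 4 each), a difference of 0.92. This score over chosen genes was given no test. The lipoxygenase sum was 1607 ± 13.2 TPM at ZT13 and 1596 ± 97.3 TPM at ZT1. The cyclooxygenase sum was 106 ± 41.4 TPM at ZT13 and 191 ± 36.6 TPM at ZT1, with overlapping ranges. In TPM, the ratio thus differed through the cyclooxygenase sum, which was mostly Ptgs2, a gene with no resolved difference. Sums compared between time points depend on the scale. Alox5 averaged 358 TPM at ZT13 and 458 TPM at ZT1, but 721 CPM at ZT13 and 768 CPM at ZT1. Alox5ap averaged 968 and 772 TPM, and 671 and 457 CPM, in the same order. How the ratio divides between the branch sums was examined in TPM only. The lipoxygenase sum exceeded the cyclooxygenase sum at least 6.60 times in every library. Alox5 alone over Ptgs2 alone gave ratios of 2.75, 4.85, 12.2 and 4.36 at ZT13 and of 5.49, 2.80, 1.89 and 4.07 at ZT1, which overlapped.

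Within the lipoxygenase branch, Alox5ap took a larger share at ZT13 in most libraries. Alox5ap made up 60.2 ± 2.42% of the branch's TPM at ZT13 and 48.5 ± 7.25% at ZT1 (SD, n = 4 each). Alox5 made up 22.3 ± 1.99% at ZT13 and 28.6 ± 3.29% at ZT1, with ranges that just missed each other (20.1 to 24.4% at ZT13 and 24.5 to 32.5% at ZT1). Lta4h made up 17.3 ± 2.67% at ZT13 and 22.7 ± 4.13% at ZT1. The sizes of these shares rest on merged exon lengths, as the order of Alox5 and Lta4h does. The ratio of Alox5ap to Alox5 was 2.86, 3.00, 2.34 and 2.69 at ZT13, against 1.68, 1.57, 2.40 and 1.29 at ZT1. Only ZT1 replicate 3 and ZT13 replicate 3 overlapped in it. Within the cyclooxygenase branch, Ptgs2 made up 69.9 ± 11.8% at ZT13 and 73.9 ± 10.3% at ZT1, with a range from 53.4% in ZT13 replicate 3 to 85.9% in ZT1 replicate 3. The Ptgs2 share thus varied within each time point by more than the means differed.

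**Figure D3:**
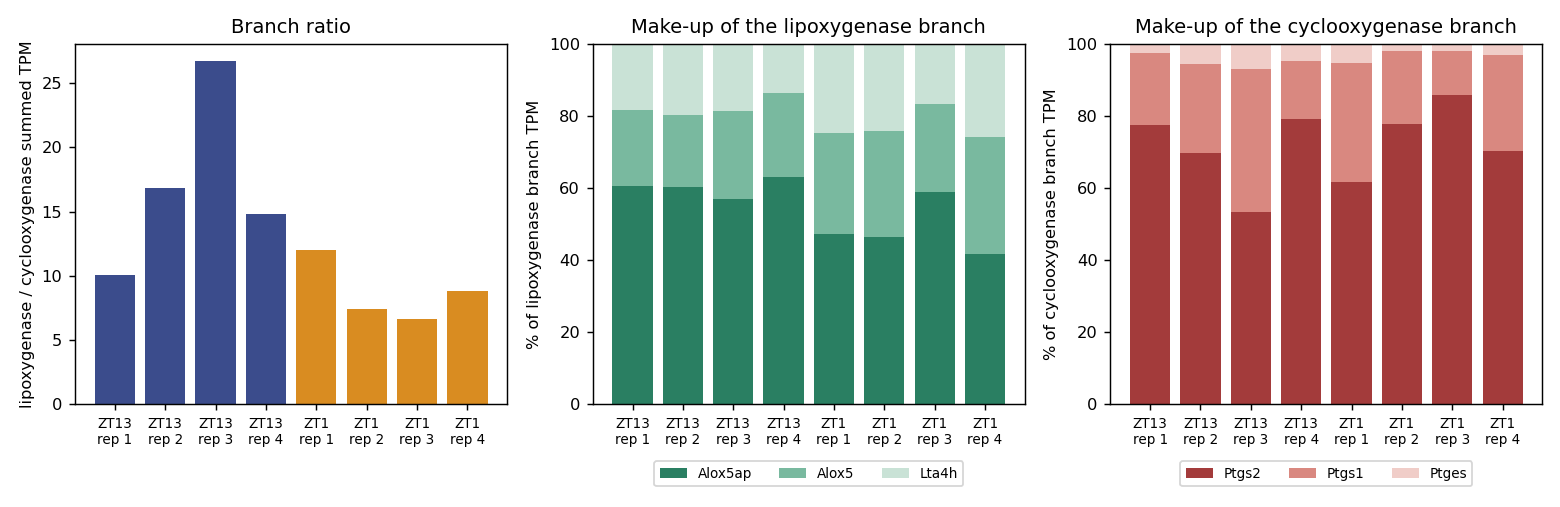
Left, the ratio of summed lipoxygenase to summed cyclooxygenase TPM in each library (bars from 0, ZT13 then ZT1). Middle and right, the share of each gene in its branch's TPM in percent; Alox15 and Ltc4s are too low to be drawn. The ratio is highest in ZT13 replicate 3 (26.7) and the Alox5ap share is lowest in ZT1 replicate 4 (41.7%).

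The genes whose levels followed the head of each branch were sought among 6771 tested genes of 10 or more CPM on average, by Pearson's r of log2 CPM over the 8 libraries. These values rank genes chosen for their likeness and have no test. For Alox5 they were Mark2 (r = 0.97), Cebpz, Tnip1, Far1 and Casd1 (r = 0.95). Their log2 fold changes ran from -0.18 (Cebpz) to -0.02 (Mark2), and all 5 had their lowest values in ZT13 replicates 1 and 2, as Alox5 did. For Ptgs2 they were Ets2 (r = 0.97), an ETS transcription factor gene, Hnrnpc, Btg2, Csrnp1 and Samd4b (r = 0.94). Btg2 and Csrnp1 are known as early-response genes. Their log2 fold changes ran from -0.32 (Btg2) to -0.19 (Samd4b), against -0.73 for Ptgs2, and all 5 were lowest in ZT13 replicate 3, as Ptgs2 was. Libraries share depth and composition, which such likeness does not remove.

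**Figure D4:**
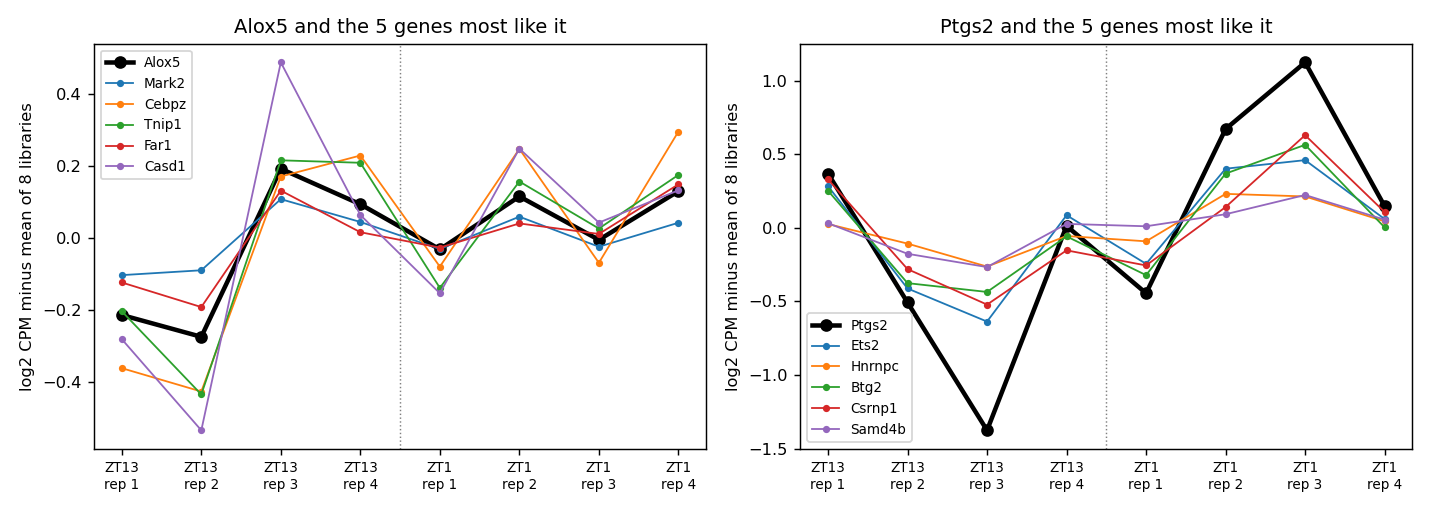
Log2 CPM minus the mean of the 8 libraries (vertical axis) for Alox5 (left) and Ptgs2 (right), each with the 5 genes most like it, in the ZT13 libraries and then the ZT1 libraries. Ptgs2 is lowest in ZT13 replicate 3 and highest in ZT1 replicate 3, and the 5 other genes swing less.

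Around these genes, 68 other genes of arachidonate handling, eicosanoid synthesis, breakdown and reception were listed. Of these, 54 were in the table and 41 were tested, and the other 14 were not analysed here. In edgeR 0 of the 41 passed over all genes, and 6 had an unadjusted p under 0.05, 4 with higher and 2 with lower values at ZT13 (9.2% over all tested genes). DESeq2 called 2 of them, Fpr2 with higher (0.341% over all tested genes) and Acsl4 with lower values at ZT13 (0.595%). The groups did not overlap for 6 of the 41 (5.65% over all tested genes). The median log2 fold change was 0.01, against -0.02 over all tested genes.

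Receptors for leukotrienes and pro-resolving ligands counted 6 tested genes, 3 with positive and 3 with negative log2 fold changes. Ltb4r1, the high-affinity leukotriene B4 receptor, was the most abundant, at 485 ± 43.8 CPM at ZT13 and 389 ± 51.4 CPM at ZT1 (SD, n = 4 each; log2 fold change 0.32 ± 0.11 SE; edgeR adjusted p = 0.491). Fpr2, a receptor for annexin A1 and lipoxin A4, had 235, 213, 227 and 216 CPM at ZT13, against 131, 172, 184 and 121 CPM at ZT1. Every ZT13 library was above every ZT1 library, with a log2 fold change of 0.55 ± 0.14 (SE; DESeq2 adjusted p = 0.0233; edgeR adjusted p = 0.382). Cysltr1, for cysteinyl leukotrienes, stood at 15.9 ± 3.13 CPM at ZT13 and 17.3 ± 2.80 CPM at ZT1. Gpr18, a receptor reported to bind resolvin D2, stood at 1.47 ± 1.53 CPM at ZT13 and 4.19 ± 2.17 CPM at ZT1, with overlap.

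Of 9 tested phospholipase and arachidonate-handling genes, 6 had positive and 3 negative values. Acsl4, the ligase that loads arachidonic acid onto coenzyme A, had 22.3, 24.4, 22.5 and 22.4 CPM at ZT13, against 37.3, 31.0, 30.3 and 37.2 CPM at ZT1. The groups did not overlap and the ZT13 libraries were nearly equal (log2 fold change -0.57 ± 0.13 SE; DESeq2 adjusted p = 0.0193; edgeR adjusted p = 0.315). Anxa1 (annexin A1, an inhibitor of phospholipase A2) was the most abundant gene of all lists of the pathway, at 8932 ± 1263 CPM at ZT13 and 7110 ± 509.5 CPM at ZT1 (log2 fold change 0.33 ± 0.11 SE; edgeR adjusted p = 0.491). Among the partners of the 5-lipoxygenase, the kinase gene Mapkapk2 stood at 419.8 ± 33.97 CPM at ZT13 and 525 ± 50.0 CPM at ZT1 (log2 fold change -0.32 ± 0.10 SE; edgeR adjusted p = 0.439). Cotl1, whose protein binds 5-lipoxygenase, varied too widely to compare (219.6 ± 114 CPM at ZT13 and 339.7 ± 268 CPM at ZT1), and Gpx4, a lipid peroxide reductase, stood at 96.6 ± 7.83 CPM at ZT13 and 87.0 ± 34.5 CPM at ZT1. Pla2g7, the platelet-activating factor hydrolase gene, stood at 648 ± 77.3 CPM at ZT13 and 560.3 ± 86.4 CPM at ZT1.

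Leukotriene conversion and breakdown counted 10 tested genes, 6 positive and 4 negative, none with an unadjusted p under 0.05. Mgst1, a microsomal glutathione transferase, stood at 591 ± 37.6 CPM at ZT13 and 501 ± 101 CPM at ZT1. Cyp4f18, which hydroxylates leukotriene B4 in mouse neutrophils, stood at 482 ± 46.5 CPM at ZT13 and 491 ± 83.7 CPM at ZT1 (log2 fold change -0.03 ± 0.13 SE). Mgst2, a relative of leukotriene C4 synthase with the same activity, had 64.1 ± 9.96 CPM at ZT13 and 59.8 ± 9.60 CPM at ZT1, far more than Ltc4s (0.205 ± 0.1002 CPM at ZT13 and 0.144 ± 0.079 CPM at ZT1). Per length, Mgst2 averaged 37.1 TPM over the 8 libraries, against 0.387 TPM for Ltc4s. Mgst3, another microsomal glutathione transferase, stood at 10.03 ± 3.15 CPM at ZT13 and 7.44 ± 1.32 CPM at ZT1, and Cyp4f13 at 16.8 ± 2.33 CPM at ZT13 and 14.1 ± 2.54 CPM at ZT1.

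On the prostanoid side, 6 synthase genes were tested, 4 positive and 2 negative. Ptges3, the cytosolic prostaglandin E synthase, exceeded Ptges per length, at 35.8 TPM over the 8 libraries against 4.97 TPM. Akr1b3, an aldo-keto reductase with prostaglandin F synthase activity, stood at 29.7 ± 2.46 CPM at ZT13 and 23.7 ± 1.27 CPM at ZT1 without overlap (log2 fold change 0.33 ± 0.13 SE; edgeR adjusted p = 0.504). Tbxas1, the thromboxane synthase gene, stood at 12.7 ± 2.37 CPM at ZT13 and 14.5 ± 3.23 CPM at ZT1, and Ptgds, for prostaglandin D synthase, had no count in any library. Cbr1, a carbonyl reductase gene, stood at 3.08 ± 1.26 CPM at ZT13 and 2.06 ± 1.23 CPM at ZT1, and Hpgds, the haematopoietic prostaglandin D synthase gene, at 0.837 ± 0.605 CPM at ZT13 and 0.313 ± 0.511 CPM at ZT1. The prostanoid exporter gene Abcc4 stood at 48.8 ± 15.3 CPM at ZT13 and 50.1 ± 4.17 CPM at ZT1, and the reductase gene Ptgr2 at 18.6 ± 2.52 CPM at ZT13 and 16.96 ± 0.959 CPM at ZT1. Of 5 tested prostanoid receptor genes, 1 had a positive and 4 had negative values, with 0 under an unadjusted p of 0.05. Ptgir, for prostacyclin, led at 57.2 ± 10.98 CPM at ZT13 and 51.8 ± 6.62 CPM at ZT1, followed by Ptger4, for prostaglandin E2, at 32.2 ± 12.2 CPM at ZT13 and 37.8 ± 5.49 CPM at ZT1. Ptger2 stood at 11.1 ± 2.02 CPM at ZT13 and 14.99 ± 2.37 CPM at ZT1 (log2 fold change -0.43 ± 0.20 SE; edgeR adjusted p = 0.556). Ptger1 and Ptger3 were near the limit of counting, at 0.119 ± 0.197 and 0.416 ± 0.744 CPM at ZT13, against 0.419 ± 0.123 and 1.39 ± 0.269 CPM at ZT1.

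**Figure D5:**
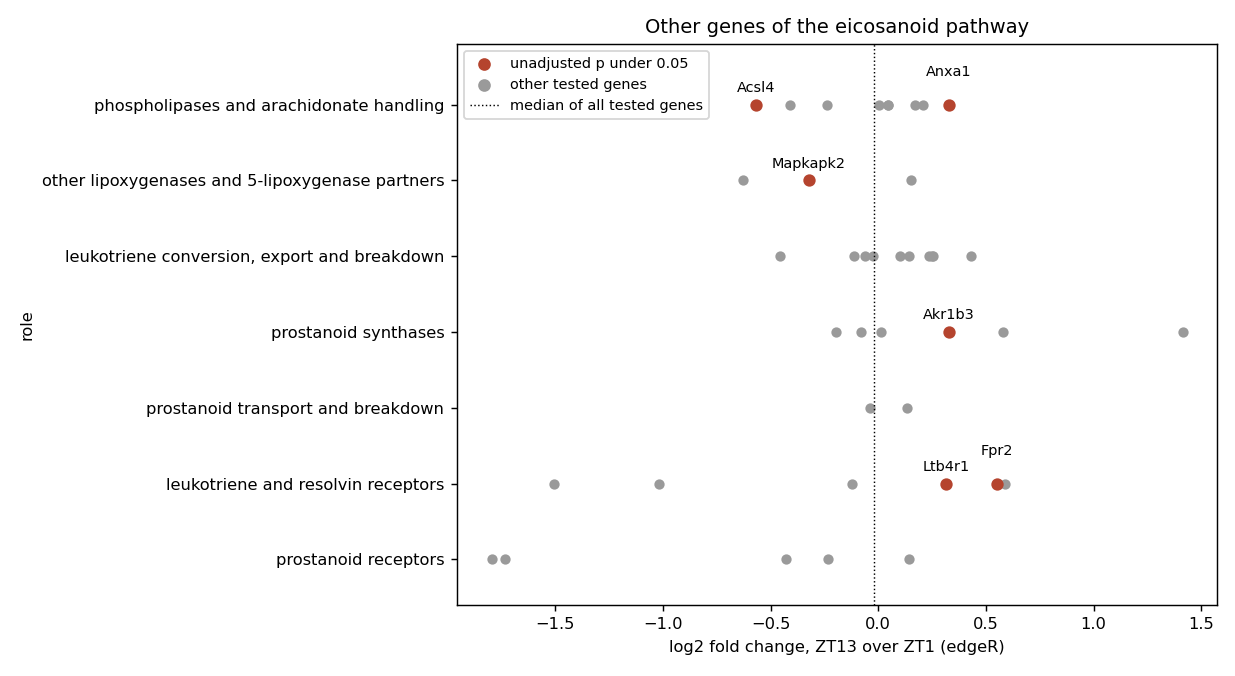
Log2 fold change of ZT13 over ZT1 (horizontal axis) for the 41 other pathway genes tested, by role (vertical axis). Named red points had an unadjusted p under 0.05 and grey points did not; the dotted line is the median of all tested genes (-0.02). The named genes lie between -0.57 (Acsl4) and 0.55 (Fpr2).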

How the data were processed

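RNA-seq counts of 8 libraries (4 ZT13, 4 ZT1) were used. The authors deposited raw counts per gene in 1 table. Per the labels' protocols, cDNA was made with SMART-Seq v4 and libraries with Nextera XT, which does not mark strand. The submitters' processing notes name build GRCm38 and list STAR 2.7.10b, Subread 2.0.3, featureCounts, FastQC and DESeq2 1.46.0. For the annotation release and program settings, details were not given in the sources used here. Symbols, lengths and coordinates came from GENCODE M21 on GRCm38 (22231 of 23369 identifiers matched without their version, 17 with it; unmatched genes held 0.121% of counts). Columns were assigned by the library names in the labels. No column was left unused.

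The main test was the quasi-likelihood F-test of edgeR 4.0.16 in R 4.3.3 with all 8 libraries and no covariate: filterByExpr by group (minimum count 10, minimum total 15), TMM factors, robust fits and Benjamini-Hochberg adjustment over 12610 genes with a threshold of 0.05. SEs are the absolute log2 fold change over the square root of F. The biological coefficient of variation was 0.498. A limit of 3 counts corresponds to 0.0442 to 0.0650 CPM and covers counting error only. Log2 CPM used a prior count of 2. TPM divides counts by merged exon length and was compared within libraries only, apart from the branch sums, which are also given per time point. The procedure was tested on simulated data with known changes. Alternatives were other normalizations and filters, DESeq2 1.42.0, limma 3.58.1 (voom), replicate blocks and leaving out each library.

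Members and gene lists were chosen with earlier results of these data known. Besides the members, the rule named the most abundant and the 3 smallest-p genes of each pathway role, the most abundant marker of each cell type (1 marker list is not reported here) and the 5 genes most like Alox5 and Ptgs2. Cysltr1, Mgst2, Cyp4f18, Tbxas1, Ptgds, Ptger4, Ppbp, Mrc1, P2ry12, S100a8 and Csf3r were named after their values were seen. The labels give no animal identifiers. Each library was taken as a separate mouse; should that be wrong, the p-values reflect the spread of these samples alone, which may be technical.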

Additional observations from a re-analysis of the deposited data

Results flagged for a closer look

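Lta4h in ZT1 replicate 3 stood apart from the rest of its group. This library had 743.8 CPM of Lta4h, against 937, 975 and 954 CPM in ZT1 replicates 1, 2 and 4, and the gap to its nearest neighbour was 0.836 of the whole range, above the critical value for 4 samples. In all, 24 groups of 4 values were examined, and chance gives about 1 flag in 20. The same library had the most Ptgs2 (436 CPM) and the most Alox5ap of its group (611 CPM). Without it, the log2 fold change of Lta4h was -0.21 in place of -0.13, and that of Alox5ap 0.72 in place of 0.55.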

How the results depend on the processing

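With edgeR, 0 genes, 0 members and 0 other pathway genes passed under every normalization, filter, block and left-out library that was run (range over left-out libraries 0 to 0), and limma-voom also called 0. DESeq2 called 118 genes, 2 members (Alox5ap, Alox15) and 2 other pathway genes (Acsl4, Fpr2). On all genes of the table, an alternative chosen after seeing the data, it called 256 genes, the same 2 members (adjusted p = 0.0406 and 0.00453) and 2 other pathway genes. Smallest edgeR adjusted p-values with a library left out were 0.102 for Alox5ap and 0.205 for Alox15, both without ZT1 replicate 3. Over left-out libraries the log2 fold change ran from 0.46 to 0.72 for Alox5ap, from 1.82 to 2.52 for Alox15, from -0.65 to -0.42 for Ptgs1 and from -1.01 to -0.44 for Ptgs2.

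Of the member values under alternatives, 155 kept direction and side of the threshold, 4 passed it in DESeq2 and 1 turned: Ptges at -0.0099 without ZT1 replicate 2 (up to 0.24 with another library left out). Among named pathway genes, Abcc4 turned to 0.094 without ZT13 replicate 1 and 0.0012 without ZT13 replicate 2 (as low as -0.27 with another left out), and Cotl1 to 0.087 with the replicate block from library names. With 5 CPM in 4 samples, Alox15 and Hpgd were left out.

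The difference in the log2 branch ratio (0.92) ran from 0.68 to 1.15 with a library left out.

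Same-numbered libraries showed little shared deviation (correlations of -0.0399 to 0.0505). Only the libraries numbered 4 correlated best with their own number, in the titles and in the library names. The labels do not state whether equal numbers mark a shared day or animal, and so few pairs cannot decide it. The replicate block left 0 calls, with a log2 fold change for Alox5ap of 0.58 (numbers from titles) and 0.68 (numbers from library names).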
